A study of Mus musculus with 16 samples.

Results

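The genes described here are 8 liver members of the Slc22 family of organic ion transporters, namely Slc22a5, Slc22a7, Slc22a18, Slc22a23, Slc22a26, Slc22a27, Slc22a28 and Slc22a30. They were taken by name from a table of log2 expression values, as rows whose probe annotation gives exactly 1 of these symbols, and each of them had 1 such row, so that no choice between rows by their mean level was needed. They are 8 of the 22180 gene symbols on the array, and all 8 passed the filter on low values that left 13555 genes for testing. Another 16 Slc22 genes have a row, of which 8 passed that filter. The list was chosen by family name and by sight of the levels and tumour changes on these same arrays, so the tumour changes of its members are given as a description and support nothing further.

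Gene expression was measured on mouse Affymetrix arrays in liver of 8 transgenic C57BL/6J mice killed at 18 months of age, with 1 tumour and 1 piece of non-tumour liver from each mouse. The 4 groups of 4 arrays are MYC/REG3A tumour, MYC/REG3A non-tumour liver, MYC tumour and MYC non-tumour liver. MYC/REG3A mice have the labelled genotype MYC+/+, REG3A+/+ and MYC mice the labelled genotype MYC+/+, REG3A-/-, so that the c-MYC oncogene is carried by every mouse, the animals that gave the non-tumour pieces included. c-MYC is expressed in liver from control sequences of woodchuck hepatitis virus. REG3A encodes a secreted C-type lectin, and what drives its transgene is not given in the sources used here. No liver without the MYC transgene was used, and the labels state neither the sex of the mice nor how many tumours a mouse had. Replicates are separate mice.

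Slc22 proteins sit in the plasma membrane with many membrane-spanning segments and carry small organic cations, anions and zwitterions such as carnitine, drugs, bile salts, steroid conjugates and uric acid. Several of them face the blood in hepatocytes and take substrates up for metabolism or excretion. Mice and rats carry a group of organic anion transporter genes on one chromosome that has no matching one-to-one set in humans, and some of these genes are known to be expressed more in female than in male mouse liver.

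Slc22a26, Slc22a27, Slc22a28 and Slc22a30 belong to that rodent group and are neighbours on chromosome 19. RefSeq's genes of assembly GRCm38.p6 run there in the order Slc22a19, Slc22a26, Slc22a27, Slc22a28, Slc22a29, Slc22a30, Slc22a8 and Slc22a6. The sequences upstream of Slc22a26 to Slc22a30 are shown because the genes lie side by side and were lower in tumours together, and because they show how alike the copies are. Each is the 250 bases before the transcript start of the gene's promoter entry, on the minus strand of GRCm38.p6, from RefSeq, written 5′ to 3′ and ending next to that start. For Slc22a27, Slc22a29 and Slc22a30 the annotated bounds of the gene reach farther upstream than that start. The window therefore overlaps the gene, wholly for Slc22a27 and Slc22a29 and by a few bases for Slc22a30. They lie at chr19:7802668-7802917 for Slc22a26, chr19:7966028-7966277 for Slc22a27, chr19:8131983-8132232 for Slc22a28, chr19:8218901-8219150 for Slc22a29 and chr19:8405106-8405355 for Slc22a30. Capitals mark the letters GTTAAC and GTTAAT on either strand, which resemble one arm of the site of the liver factor HNF1.
Slc22a26: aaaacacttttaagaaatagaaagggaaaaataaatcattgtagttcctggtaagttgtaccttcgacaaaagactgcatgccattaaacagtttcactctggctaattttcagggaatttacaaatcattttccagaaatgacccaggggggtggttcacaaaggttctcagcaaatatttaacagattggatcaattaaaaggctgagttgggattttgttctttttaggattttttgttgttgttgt
Slc22a27: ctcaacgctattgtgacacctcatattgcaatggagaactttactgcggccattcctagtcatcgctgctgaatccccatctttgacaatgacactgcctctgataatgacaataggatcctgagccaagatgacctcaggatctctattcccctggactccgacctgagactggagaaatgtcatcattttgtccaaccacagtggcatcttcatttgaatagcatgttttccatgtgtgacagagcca
Slc22a28: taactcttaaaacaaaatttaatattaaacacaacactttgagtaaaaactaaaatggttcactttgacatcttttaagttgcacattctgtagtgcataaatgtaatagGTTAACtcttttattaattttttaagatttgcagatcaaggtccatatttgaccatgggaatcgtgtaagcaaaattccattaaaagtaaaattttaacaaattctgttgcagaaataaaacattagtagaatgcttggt
Slc22a29: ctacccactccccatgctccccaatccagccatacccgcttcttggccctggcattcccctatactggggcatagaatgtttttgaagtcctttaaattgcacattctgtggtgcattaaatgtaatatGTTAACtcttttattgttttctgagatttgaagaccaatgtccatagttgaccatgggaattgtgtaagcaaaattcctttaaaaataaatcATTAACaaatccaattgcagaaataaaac
Slc22a30: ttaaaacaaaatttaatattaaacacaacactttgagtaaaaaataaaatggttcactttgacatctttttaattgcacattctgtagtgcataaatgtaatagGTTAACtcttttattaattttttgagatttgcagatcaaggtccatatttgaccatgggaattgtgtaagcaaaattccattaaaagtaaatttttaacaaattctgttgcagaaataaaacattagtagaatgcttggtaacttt

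Over windows of 300 bases (the 250 shown and the first bases of the gene), Slc22a28 and Slc22a30 were identical at 288 of 294 aligned bases, or 98.0%. Slc22a29, the gene between them, matched Slc22a28 at 81.7% and Slc22a30 at 82.5% of aligned bases. Slc22a26 matched Slc22a28 at 73.0%. Promoters of Slc22a5, Slc22a18, Slc22a19 and Slc22a23 were aligned as well. The 26 pairs that include Slc22a5, Slc22a18, Slc22a23 or Slc22a27 ranged from 56.9% to 77.2% with a median of 65.8%. Only the pairs within the trio of Slc22a28, Slc22a29 and Slc22a30 lay above that range. GTTAAC begins at position -140 from the start of Slc22a28, at -121 from that of Slc22a29 and at -146 from that of Slc22a30. It also begins at -138 from the start of Slc22a19, whose row did not pass the filter, and was not found in the window of Slc22a26 or Slc22a27. These letters occur in 3.05% of the 32851 mouse promoter windows of the same length. GTTAAT, found in the Slc22a29 window alone among these genes, occurs in 7.1% of all windows. The letters CAAAGT, the core of an HNF4 site, were found at 2 places upstream of each of Slc22a28, Slc22a30 and Slc22a19 and occur in 14.4% of all windows. The STAT5 letters TTCNNNGAA were found at 1 place upstream of Slc22a26 and at 2 places upstream of Slc22a19, and they occur in 8.3% of all windows. The MYC E-box letters CACGTG, present in 7.15% of all windows, were found upstream of none of the 7 members with a promoter entry. These matches describe the letters only. Copies this similar could share probe signal, and the probe sequences were not examined here, so the rows of Slc22a28, Slc22a29 and Slc22a30 may not be independent measurements.

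Values below are log2 expression values, in which a difference of 1 is a 2-fold change. Array medians over all rows lay between 4.90 and 4.97 and lower quartiles between 3.71 and 3.77 and, with no detection calls in the table, precision rests on how many arrays there are. Of 8 hepatocyte markers 7 have a row, and their summed linear level was 46514 to 52646 in MYC/REG3A tumours, against 50540 to 54024 in MYC/REG3A non-tumour liver, and 46379 to 50352 in MYC tumours, against 50227 to 51911 in MYC non-tumour liver. The Myc row spanned 7.10 to 9.37 in MYC/REG3A tumours, 6.99 to 9.24 in MYC/REG3A non-tumour liver, 6.84 to 7.24 in MYC tumours and 7.41 to 7.92 in MYC non-tumour liver. Xist was at 9.23 or above, and the Y-linked rows Uty, Eif2s3y and Kdm5d at 3.69 or below, on all 16 arrays. Kidney tubule markers, relevant because many Slc22 proteins are made in kidney, summed to 96 to 119 in every group, and 0 of their 6 rows passed the filter.

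The question put to each member was how its level differed between tumour and non-tumour liver of the same mouse, and whether that difference depended on REG3A. Slc22a26, Slc22a27, Slc22a28, Slc22a30 and Slc22a23 were lower in tumour than in non-tumour liver in all 8 mice. Slc22a26 had the largest fall of the 8 members, 72-fold in MYC mice and 10.6-fold in MYC/REG3A mice on average. Slc22a5, the carnitine transporter, fell by 1.73-fold in MYC mice. Slc22a7 and Slc22a18 did not pass the test in either genotype. In MYC mice 6 of 8 members were called lower and 0 higher by limma, where 33.2% of all tested genes were called in either direction with 15.8% lower and 17.4% higher. In MYC/REG3A mice 5 of 8 were called lower and 0 higher, where 12.5% of all tested genes were called, with 4.88% lower and 7.58% higher. The median member change was -1.66 in MYC mice and -1.10 in MYC/REG3A mice, beside medians over all tested genes of -0.03 and -0.02. Nothing is read from these counts, since the members were named with such results known. In a bulk tissue sample, fewer cells of a type and less RNA per cell cannot be told apart.

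Slc22a26 is an organic anion transporter of the rodent group and is known for higher expression in female mouse liver. Its level was 6.34, 10.90, 4.61 and 10.20 in the tumours of MYC/REG3A mice 1 to 4, against 11.40, 11.42, 11.36 and 11.51 in their non-tumour liver. It was 4.95, 5.44, 5.60 and 4.83 in the tumours of MYC mice 1 to 4, against 11.12, 11.30, 11.55 and 11.53 in their non-tumour liver. All MYC tumours were low and close together, whereas the MYC/REG3A tumours split, with mice 1 and 3 near the MYC tumours and mice 2 and 4 much closer to their own non-tumour liver. Tumour and non-tumour liver did not overlap in either genotype. The same held for Slc22a23, Slc22a27, Slc22a28 and Slc22a30, and it held for 19.4% of all tested genes in MYC/REG3A mice and for 30.1% in MYC mice. The SD between mice was 3.03 in MYC/REG3A tumours and 0.06 in MYC/REG3A non-tumour liver, against 0.37 in MYC tumours and 0.21 in MYC non-tumour liver (n = 4 each). The change was -3.41 (SE 0.836, limma adjusted p = 0.0299) in MYC/REG3A mice and -6.17 (SE 0.836, limma adjusted p = 0.00115) in MYC mice. The SE and p pool the spread of both genotypes, while the SD of the change was 2.98 in MYC/REG3A and 0.38 in MYC mice. The change in MYC mice ranked 2 by size among all 13555 tested genes. Ordered within each mouse from the largest fall, Slc22a26 stood at 6, 315, 4 and 46 in MYC/REG3A mice 1 to 4 and at 6, 3, 3 and 6 in MYC mice 1 to 4.

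Slc22a27, also an organic anion transporter with known female bias in mouse liver, lies next to Slc22a26. It stood at 5.75, 8.80, 4.64 and 8.65 in the tumours of MYC/REG3A mice 1 to 4, against 9.14, 9.86, 9.53 and 9.79 in their non-tumour liver. In the tumours of MYC mice 1 to 4 it stood at 6.68, 8.31, 6.10 and 5.09, against 9.56, 9.71, 9.91 and 9.18 in their non-tumour liver. Mice 1 and 3 again had the low MYC/REG3A tumours, and among MYC tumours mouse 2 was the highest, so that the range of one genotype's tumours lay across that of the other. Slc22a27 changed by -2.62 (SE 0.619, limma adjusted p = 0.0265), or 6.13-fold, in MYC/REG3A mice and by -3.05 (SE 0.619, limma adjusted p = 0.00543), or 8.26-fold, in MYC mice.

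**Figure D1:**
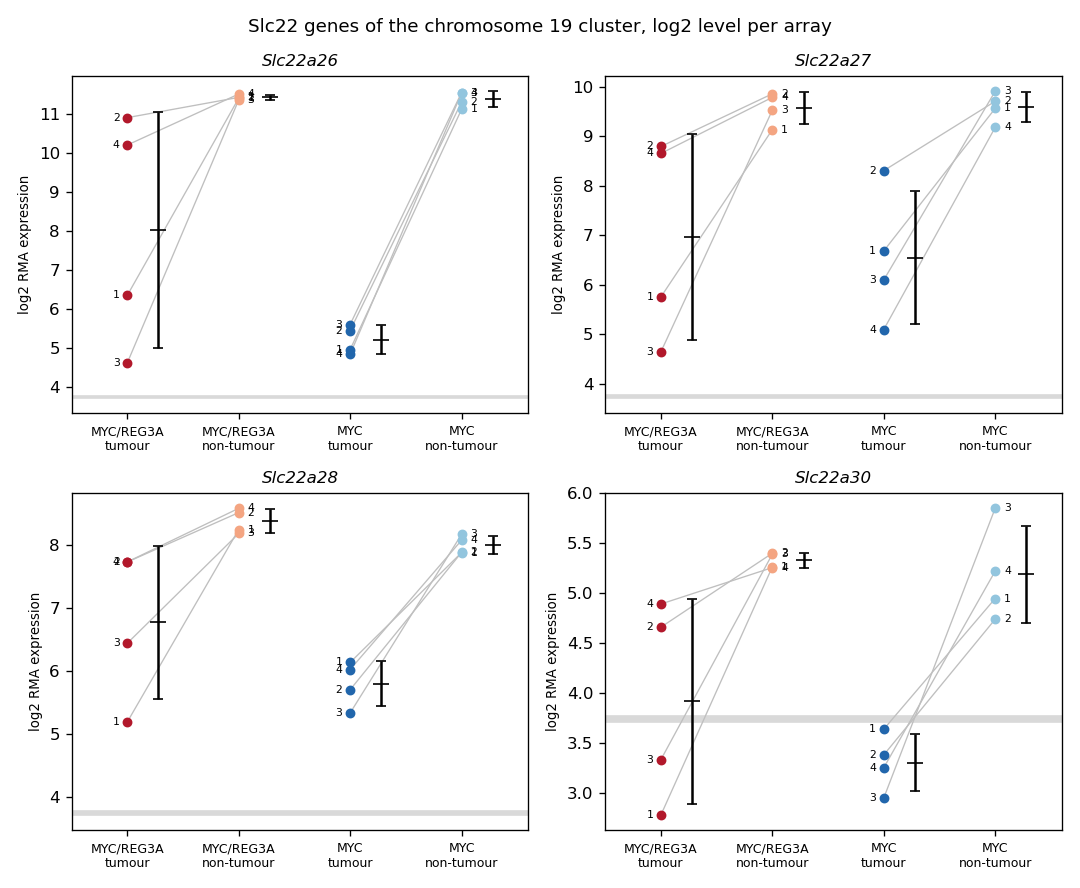
Log2 expression of Slc22a26, Slc22a27, Slc22a28 and Slc22a30 in each of the 16 arrays, by group from left to right as MYC/REG3A tumour, MYC/REG3A non-tumour liver, MYC tumour and MYC non-tumour liver, with points numbered by mouse, lines joining both samples of a mouse, black bars for mean ± SD (n = 4) and a grey band for the lower quartile of the arrays (3.71 to 3.77). The tumours of MYC/REG3A mice 2 and 4 sit closer to their non-tumour liver than those of mice 1 and 3 in all 4 panels.

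Slc22a28 and Slc22a30 come from the same rodent group, and their substrates are less well known. Slc22a28 stood at 5.19, 7.74, 6.44 and 7.74 in the tumours of MYC/REG3A mice 1 to 4, against 8.25, 8.52, 8.19 and 8.59 in their non-tumour liver. It stood at 6.14, 5.70, 5.33 and 6.02 in the tumours of MYC mice 1 to 4, against 7.88, 7.89, 8.18 and 8.08 in their non-tumour liver. Every tumour of a genotype was below every non-tumour piece of it. The change was -1.61 (SE 0.331, limma adjusted p = 0.0174), or 3.06-fold, in MYC/REG3A mice and -2.21 (SE 0.331, limma adjusted p = 0.00161), or 4.62-fold, in MYC mice.

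Slc22a30 was measured near the bottom of the scale. It stood at 2.78, 4.66, 3.33 and 4.89 in the tumours of MYC/REG3A mice 1 to 4, against 5.26, 5.40, 5.39 and 5.26 in their non-tumour liver. It stood at 3.64, 3.38, 2.95 and 3.25 in the tumours of MYC mice 1 to 4, against 4.95, 4.74, 5.85 and 5.22 in their non-tumour liver. The tumour values lay below the lower quartile of their array in 2 of 4 MYC/REG3A mice and in 4 of 4 MYC mice, and the falls may therefore be larger than the values show. The row passed the filter through 7 arrays, all of non-tumour liver, so it was tested only through the tissue where it is high, and its calls support nothing. The change was -1.41 (SE 0.359, limma adjusted p = 0.0336) in MYC/REG3A mice and -1.89 (SE 0.359, limma adjusted p = 0.00423) in MYC mice, and with no filter the call in MYC/REG3A mice was lost (adjusted p = 0.0529).

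The row of Slc22a29, the gene between Slc22a28 and Slc22a30, is no member of the list and is described because it lies within the run. It may share probe signal with Slc22a28 and Slc22a30, so it cannot show whether the pattern passes over Slc22a29. That row was above the array median in 9 arrays, and the only tumours among these were those of MYC/REG3A mice 2 and 4. The row thus passed the filter through non-tumour liver, where it is high, and its calls support nothing. It changed by -1.26, -0.46, -2.39 and -0.90 in MYC/REG3A mice 1 to 4 and by -0.09, -1.16, -1.54 and -1.11 in MYC mice 1 to 4, again lower in all 8 tumours. The change was -1.25 (SE 0.297, limma adjusted p = 0.0265) in MYC/REG3A mice and -0.97 (SE 0.297, limma adjusted p = 0.0313) in MYC mice, and both calls were lost without the mouse block, with adjusted p = 0.094 in MYC/REG3A and 0.127 in MYC mice, and with the mouse as a random block, with adjusted p = 0.0643 in MYC/REG3A and 0.0957 in MYC mice. Slc22a19 on one side of the run and Slc22a8 and Slc22a6 on the other did not pass the filter, and their rows spanned 3.33 to 3.66, 4.52 to 5.18 and 4.30 to 4.72 over the 16 arrays. Slc22a8 and Slc22a6 encode the organic anion transporters OAT3 and OAT1, which are known mainly from kidney. The next gene with a tested row, Chrm1, encodes a muscarinic acetylcholine receptor and rose by 0.93 (SE 0.232, limma adjusted p = 0.0323) in MYC/REG3A mice and by 0.95 (SE 0.232, limma adjusted p = 0.0123) in MYC mice. All 5 tested genes from Slc22a26 to Slc22a30 were lower in tumours, which is a description only, since the members among them were chosen with their falls known. The nearest tested gene beyond Slc22a30 was higher, as the plot along the gene order shows.

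**Figure D2:**
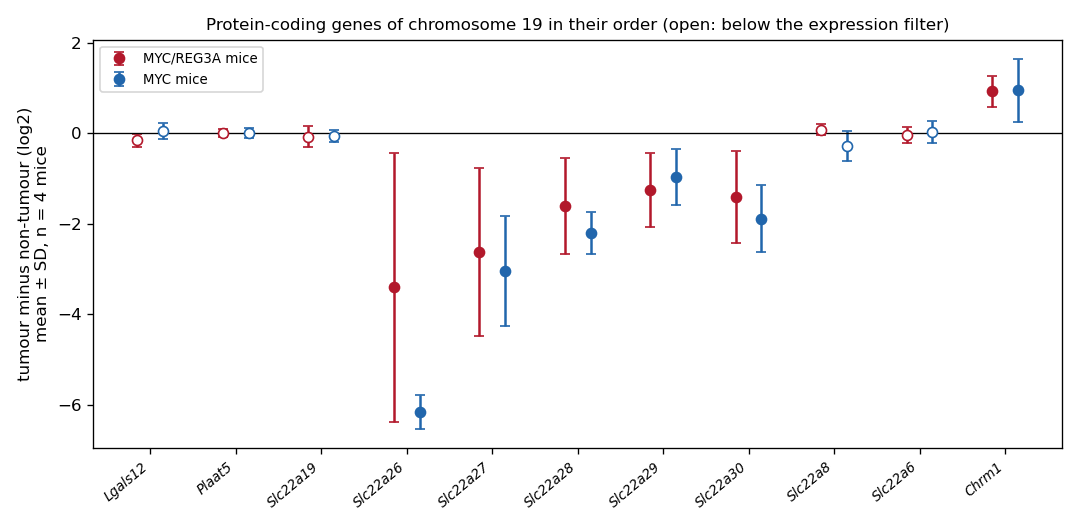
Mean change of log2 expression, tumour minus non-tumour liver, with SD over 4 mice, for 11 genes in their order on chromosome 19 and for each genotype; open symbols mark genes below the filter on low values. The mean changes of Slc22a26 to Slc22a30 run from -6.17 to -0.97, those of the neighbours below the filter lie between -0.28 and 0.08, and Chrm1 lies above 0.

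Slc22a23 is an orphan member of the family on chromosome 13, with no settled substrate. It stood at 8.17, 9.22, 8.74 and 9.45 in the tumours of MYC/REG3A mice 1 to 4, against 9.57, 9.56, 9.82 and 9.77 in their non-tumour liver. It stood at 8.33, 7.74, 8.19 and 8.37 in the tumours of MYC mice 1 to 4, against 9.45, 9.69, 9.69 and 9.55 in their non-tumour liver. The MYC/REG3A tumours of mice 2 and 4 were the highest of all 8 tumours, and tumour and non-tumour liver did not overlap in either genotype. The change was -0.79 (SE 0.201, limma adjusted p = 0.0343), or 1.72-fold, in MYC/REG3A mice and -1.44 (SE 0.201, limma adjusted p = 0.00127), or 2.71-fold, in MYC mice. Of the genes beside it, Pxdc1 fell by 1.21 (SE 0.227, limma adjusted p = 0.00405) in MYC mice, and Psmg4, a proteasome assembly factor, and Tubb2a, a beta-tubulin, rose in both genotypes by 0.56 to 1.15.

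Slc22a5 on chromosome 11 encodes OCTN2, which brings carnitine into cells for the transport of long-chain fatty acids into mitochondria. It stood at 6.62, 6.88, 6.32 and 6.63 in the tumours of MYC/REG3A mice 1 to 4, against 6.64, 6.95, 7.74 and 6.61 in their non-tumour liver. It stood at 5.65, 6.70, 6.28 and 6.06 in the tumours of MYC mice 1 to 4, against 6.56, 7.98, 6.44 and 6.86 in their non-tumour liver. The groups overlapped in both genotypes. All 4 MYC mice had the lower value in the tumour, while in MYC/REG3A mice the change was within 0.07 of 0 in mice 1, 2 and 4 and -1.42 in mouse 3, whose non-tumour piece was the highest of its group. The change was -0.37 (SE 0.247, limma adjusted p = 0.347) in MYC/REG3A mice and -0.79 (SE 0.247, limma adjusted p = 0.0342) in MYC mice. The call in MYC mice was lost without the mouse block (adjusted p = 0.0702), with the mouse as a random block (0.0514), with no filter (0.0526) and without MYC mouse 1 (0.1), 2 (0.12) or 4 (0.0959). Of 9 other genes of carnitine synthesis and acylcarnitine handling, 1 fell in each genotype and 0 rose. That gene was Slc16a9, which encodes a carnitine efflux transporter and changed by -0.68 (SE 0.190, limma adjusted p = 0.0438) in MYC/REG3A mice and by -0.92 (SE 0.190, limma adjusted p = 0.00569) in MYC mice. Cpt1a, the carnitine palmitoyltransferase of the outer mitochondrial membrane, changed by 0.24 and 0.26 (SE 0.153) without passing the test in MYC/REG3A and MYC mice.

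Slc22a7 on chromosome 17 encodes OAT2, a transporter of organic anions and cyclic nucleotides in the hepatocyte membrane. It stood at 7.17, 7.43, 7.05 and 7.25 in the tumours of MYC/REG3A mice 1 to 4, against 7.20, 7.26, 7.28 and 8.82 in their non-tumour liver. It stood at 8.11, 6.66, 8.67 and 6.77 in the tumours of MYC mice 1 to 4, against 6.35, 6.99, 6.33 and 7.09 in their non-tumour liver. MYC mice went both ways, with the tumour well above the non-tumour piece in mice 1 and 3 and slightly below it in mice 2 and 4. The changes of -0.42 (SE 0.450, limma adjusted p = 0.578) in MYC/REG3A mice and 0.86 (SE 0.450, limma adjusted p = 0.169) in MYC mice did not pass the test. The tested gene 2 places along, Dnph1, which encodes a nucleotide hydrolase, rose by 1.60 (SE 0.262, limma adjusted p = 0.00232) in MYC mice.

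Slc22a18 on chromosome 7 lies in the imprinted Kcnq1 domain and is known to be expressed from the maternal copy. It stood at 9.71, 10.03, 9.43 and 10.10 in the tumours of MYC/REG3A mice 1 to 4, against 9.99, 10.27, 10.11 and 10.10 in their non-tumour liver. It stood at 9.75, 9.30, 9.79 and 9.08 in the tumours of MYC mice 1 to 4, against 9.90, 9.86, 9.76 and 9.95 in their non-tumour liver. Tumours ranged more widely than non-tumour liver, and the groups overlapped. The change was -0.30 (SE 0.159, limma adjusted p = 0.237) in MYC/REG3A mice and -0.39 (SE 0.159, limma adjusted p = 0.0867) in MYC mice. Without MYC mouse 3 the MYC change was -0.53 and passed the test, with limma adjusted p = 0.0493. Of 7 tested imprinted genes of a list that covers this domain, 2 fell in MYC mice, Cdkn1c by 0.41 (SE 0.138, limma adjusted p = 0.0468) and Cd81 by 0.35 (SE 0.112, limma adjusted p = 0.0361), and 0 were called in MYC/REG3A mice. Cdkn1c encodes a cyclin-dependent kinase inhibitor and lies beside Slc22a18.

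**Figure D3:**
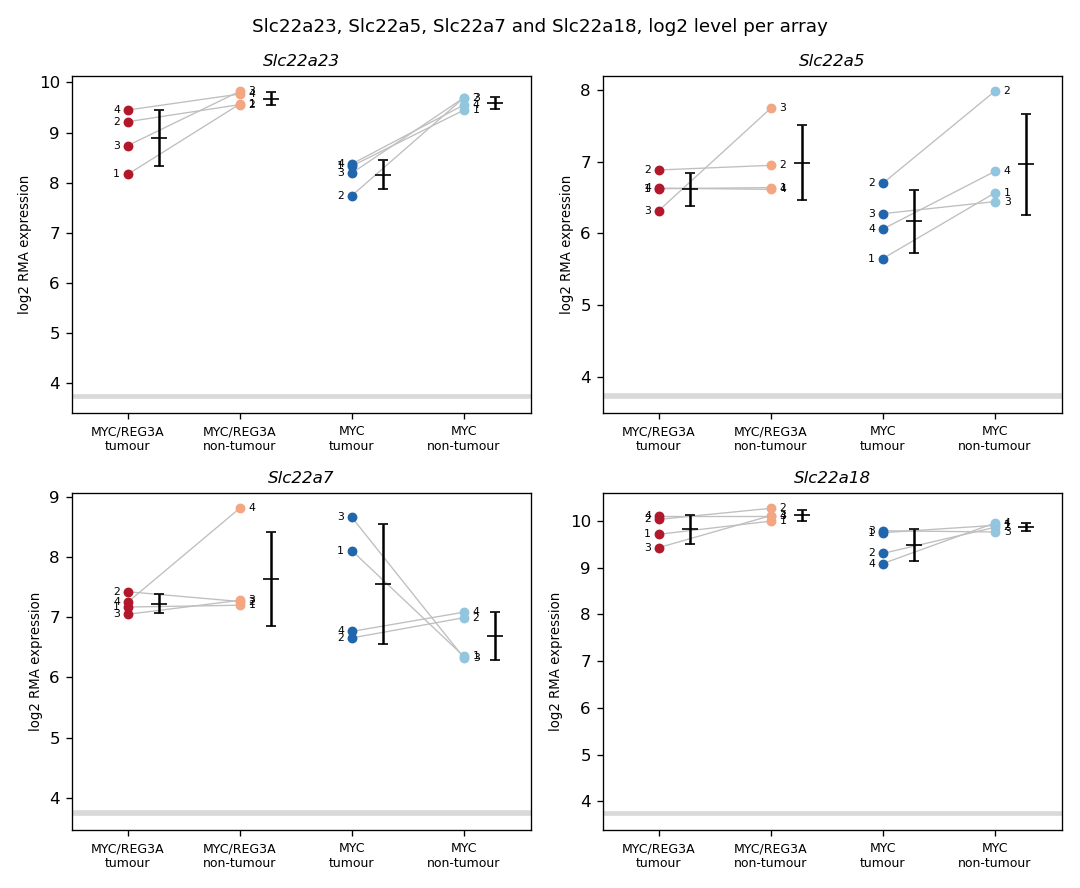
Log2 expression of Slc22a5, Slc22a7, Slc22a18 and Slc22a23 in each of the 16 arrays, by group from left to right as MYC/REG3A tumour, MYC/REG3A non-tumour liver, MYC tumour and MYC non-tumour liver, with points numbered by mouse, lines joining both samples of a mouse and black bars for mean ± SD (n = 4). Slc22a23 separates tumour from non-tumour liver in both genotypes, whereas the groups overlap for Slc22a5, Slc22a7 and Slc22a18.

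The 4 calls on the chromosome 19 members and the call on Slc22a23 in MYC/REG3A mice did not hold without mouse 1 or without mouse 3. Without mouse 1, and likewise without mouse 3, 0 of 8 members were called in MYC/REG3A mice. The loss was array-wide. Of all 13555 tested genes, 281 were called there without mouse 1 and 273 without mouse 3, against 1690 with every mouse kept. The change of Slc22a26 was -2.86 without mouse 1 and -2.30 without mouse 3, with its limma adjusted p at up to 0.142. Without mice 2 and 4 together its change was -5.90, a larger fall that the choice of these mice fixes, since they were picked for their small falls. Across the array, expression moved less in the tumours of MYC/REG3A mice 2 and 4. The SD of the change over all 13555 genes was 0.679, 0.336, 0.657 and 0.429 in MYC/REG3A mice 1 to 4, and 0.729, 0.682, 0.624 and 0.704 in MYC mice 1 to 4. The plot of changes by mouse likewise shows smaller falls in mice 2 and 4 than in mice 1 and 3 for all members but Slc22a5 and Slc22a7. In MYC/REG3A mice the Slc22a28 change was -3.06, -0.79, -1.75 and -0.85 and the Slc22a30 change -2.49, -0.74, -2.06 and -0.36 in mice 1 to 4. Markers of Kupffer cells, stellate cells and sinusoidal endothelium moved with them. The median change of 6 Kupffer cell markers was -2.52, -0.91, -2.08 and -0.80 in MYC/REG3A mice 1 to 4, and between -1.90 and -1.23 in MYC mice. Their summed linear level was 639 to 2498 in MYC/REG3A tumours, against 3344 to 4721 in MYC/REG3A non-tumour liver, and 836 to 2475 in MYC tumours, against 2461 to 7234 in MYC non-tumour liver. The stellate cell list changed by a median of -1.25, -0.26, -2.15 and -0.50 in MYC/REG3A mice 1 to 4, and the list of sinusoidal endothelium by -0.76, -0.27, -0.99 and -0.33. By limma 6 of 6 Kupffer, 4 of 6 stellate and 4 of 6 endothelial markers fell in MYC/REG3A mice, and 5 of 6 of each list fell in MYC mice. Among all tested genes 4.88% fell in MYC/REG3A mice and 15.8% in MYC mice. In MYC/REG3A mice 1 to 4 the bile duct list changed by a median of -0.052, -0.064, 0.058 and -0.057. For the B and T cell list the median was -0.391, -0.293, -0.535 and 0.058 in the same mice. Of 4 tested bile duct markers 0 fell in MYC/REG3A and 2 in MYC mice, and of 2 tested B and T cell markers 1 fell in each genotype. The median change of the 7 hepatocyte markers lay between -0.17 and -0.001 in all 8 mice, and 1 of them fell in each genotype. The part of cell composition in the member changes was not tested.

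**Figure D4:**
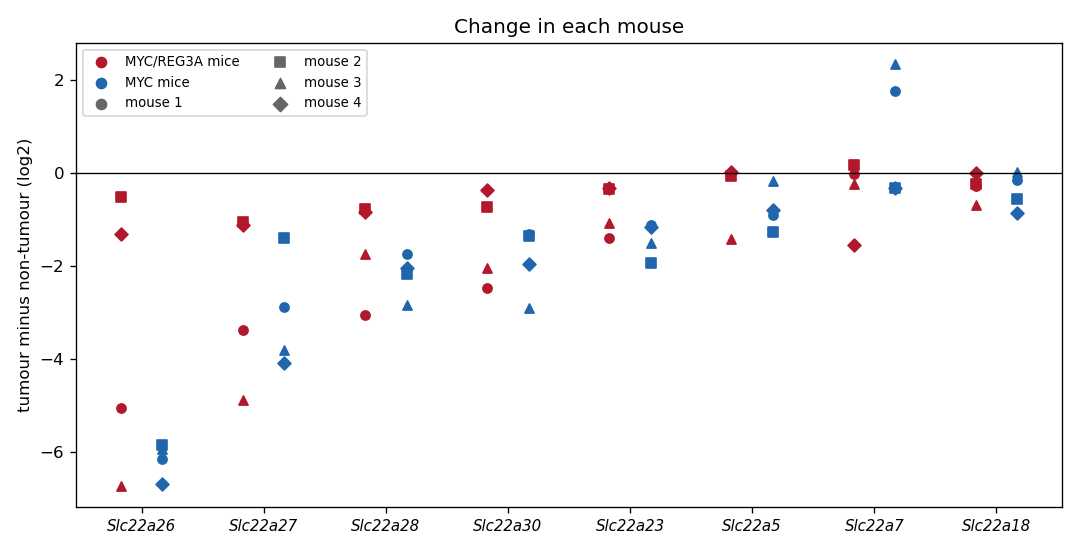
Change of log2 expression, tumour minus non-tumour liver of the same mouse, for each of the 8 genes and each mouse, MYC/REG3A mice and MYC mice. Slc22a26 changed by -0.52 and -1.31 in MYC/REG3A mice 2 and 4, against -5.06 and -6.75 in mice 1 and 3 and -6.70 to -5.86 in the 4 MYC mice.

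Between genotypes, the tumour changes of the 8 members were compared directly. The difference, MYC/REG3A minus MYC, was 2.76 for Slc22a26 (SE 1.182, 95% interval 0.119 to 5.402, limma adjusted p = 0.873) and 0.65 for Slc22a23 (SE 0.285, limma adjusted p = 0.873). Slc22a7 differed the other way by -1.28 (SE 0.637). The other 5 differences lay between 0.09 and 0.60. By limma 0 of 8 members were called at the adjusted threshold, 2 had an unadjusted p under 0.05, and 0.00738% of all tested genes were called. Thus a smaller fall in MYC/REG3A tumours was not established for any member, and for Slc22a26 the interval is wide.

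In tumours, the level of Slc22a26 averaged 8.02 ± 3.03 in MYC/REG3A mice and 5.21 ± 0.37 in MYC mice (SD, n = 4 each), a difference of 2.81 (SE 0.958, limma adjusted p = 0.356). Slc22a23 averaged 8.89 ± 0.57 in MYC/REG3A tumours and 8.16 ± 0.29 in MYC tumours, and Slc22a28 averaged 6.78 ± 1.22 in MYC/REG3A tumours and 5.80 ± 0.36 in MYC tumours (SD, n = 4 each). These differences of 0.73 (SE 0.217, limma adjusted p = 0.317) and 0.98 (SE 0.410, limma adjusted p = 0.442) did not pass the test, and tumours of the genotypes overlapped for all 8 members, as they did for all but 3.53% of tested genes. In all, 0 of 8 members and 0.0221% of tested genes were called (0.00738% higher and 0.0148% lower), and 3 members had an unadjusted p under 0.05. Without MYC/REG3A mouse 1, Slc22a23 (0.98, limma adjusted p = 0.0299) and Slc22a28 (1.51, limma adjusted p = 0.0319) were called. In that setting the calls among all tested genes also went up, to 114 from 3 with every mouse kept.

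In non-tumour liver 0 of 8 members and 0% of tested genes were called between the genotypes, and 1 member had an unadjusted p under 0.05. Slc22a7 averaged 7.64 ± 0.78 in MYC/REG3A and 6.69 ± 0.41 in MYC non-tumour liver (SD, n = 4 each), a difference of 0.95 (SE 0.424, 95% interval 0.050 to 1.852, limma adjusted p = 0.904). The MYC/REG3A mean leans on the piece of mouse 4 at 8.82, with the others at 7.20 to 7.28. With 1 mouse left out in turn, the Slc22a7 difference spanned 0.559 to 1.097. Slc22a7, Slc22a18 and Slc22a28 were higher in each MYC/REG3A than in each MYC non-tumour piece, which held for 3.88% of all tested genes in either direction. The difference was 0.25 (SE 0.164) for Slc22a18 and 0.38 (SE 0.410) for Slc22a28, with SEs that also pool the spread of the tumours. With only the 8 non-tumour arrays the SE was 0.089 for Slc22a18 and 0.120 for Slc22a28. In that setting limma adjusted p was 0.684 for both, and 0 members were called. Slc22a26 differed by 0.05 and Slc22a27 by -0.01 between the genotypes in non-tumour liver.

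**Figure D5:**
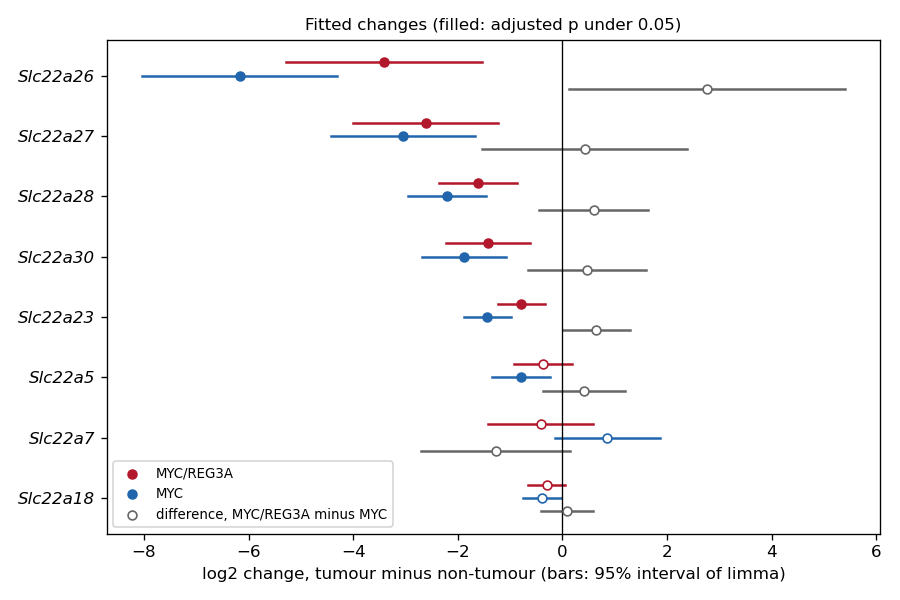
Fitted log2 change with its 95% interval for each of the 8 genes, tumour minus non-tumour liver in MYC/REG3A mice and in MYC mice, and the difference of these changes, MYC/REG3A minus MYC; filled symbols passed an adjusted p of 0.05. In MYC/REG3A mice 5 symbols are filled, in MYC mice 6, and for the difference 0.

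Other transporters of the hepatocyte give a measure of how far the pattern extends. Among the 8 tested Slc22 genes outside the list, 0 rose, 1 fell in MYC/REG3A mice and 2 fell in MYC mice, with a median of -0.04 and -0.10. Besides Slc22a29, the gene that fell in MYC mice was Slc22a17, a receptor for lipocalin 2, by 0.36 (SE 0.116, limma adjusted p = 0.0375), with a change of -0.25 in MYC/REG3A mice that did not pass the test. Slc22a4, the ergothioneine transporter OCTN1, changed by -0.41 in MYC/REG3A and -0.25 in MYC mice without passing. Slc22a12, Slc22a13, Slc22a15, Slc22a20 and Slc22a21 did not pass either. Slc22a2, Slc22a6, Slc22a8, Slc22a13b, Slc22a14, Slc22a16, Slc22a19 and Slc22a22 did not pass the filter.

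Of 9 tested uptake transporters of other families, 1 rose and 1 fell in MYC/REG3A mice and 1 rose and 4 fell in MYC mice. Among all tested genes, 7.58% rose and 4.88% fell in MYC/REG3A mice, and 17.4% rose and 15.8% fell in MYC mice. Slco2b1, an organic anion transporting polypeptide, changed by -0.79 (SE 0.166, limma adjusted p = 0.018) in MYC/REG3A and by -1.15 (SE 0.166, limma adjusted p = 0.00141) in MYC mice. Slco1b2, which takes up bile salts and drugs, changed by -0.69 without passing in MYC/REG3A mice and by -1.03 (limma adjusted p = 0.0101) in MYC mice. Slc10a1, the sodium taurocholate cotransporter NTCP, changed by -0.50 without passing in MYC/REG3A mice and by -0.64 (limma adjusted p = 0.0156) in MYC mice. The monocarboxylate transporter Slc16a1 rose by 0.67 in MYC/REG3A and 0.46 in MYC mice. Of 11 efflux transporters 0 were called in MYC/REG3A mice, and in MYC mice only Abcg5, a sterol exporter, rose, by 0.74 (limma adjusted p = 0.0219).

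Regulators known to act on sex-biased liver genes were examined because Slc22a26 and Slc22a27 are of that kind. Of 9 tested genes of growth hormone signalling, 0 rose and 3 fell in MYC/REG3A mice and 1 rose and 5 fell in MYC mice. Cux2, a repressor expressed in female mouse liver, changed by -0.76 (SE 0.171, limma adjusted p = 0.0228) in MYC/REG3A mice and by -1.22 (SE 0.171, limma adjusted p = 0.00126) in MYC mice. Igf1 changed by -0.57 in MYC/REG3A and -0.83 in MYC mice, and the kinase gene Jak2 by -0.44 in MYC/REG3A and -0.70 in MYC mice, and all 4 changes passed. Of 11 liver transcription factors and nuclear receptors, 0 rose and 2 fell in MYC/REG3A mice and 1 rose and 4 fell in MYC mice. Both lists stand beside 7.58% of all tested genes higher and 4.88% lower in MYC/REG3A mice. In MYC mice these shares were 17.4% higher and 15.8% lower. Onecut1 (HNF6) changed by -0.99 (SE 0.281, limma adjusted p = 0.0471) in MYC/REG3A mice and by -2.47 (SE 0.281, limma adjusted p = 0.000697) in MYC mice. The oestrogen receptor gene Esr1 changed by -1.52 in MYC/REG3A and -1.85 in MYC mice, and both passed.

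Of 15 tested genes with known female bias in mouse liver, 0 rose, 7 fell in MYC/REG3A mice and 14 fell in MYC mice, with a median of -2.42 and -4.56. This list was drawn up after results on these arrays were known and is not independent evidence of its direction. Of 8 male-biased genes, 1 rose and 1 fell in MYC/REG3A mice and 3 rose and 1 fell in MYC mice. Cyp2d9 rose by 2.1 in MYC/REG3A and 2.27 in MYC mice, while Ugt2b1 fell by 1.18 in MYC/REG3A and 1.78 in MYC mice. In the other comparisons, between genotypes, 0 genes of each of these lists were called.

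The profile of each chromosome 19 member was set against all tested genes outside the list by the root mean square difference of log2 values, each gene centred on its own mean over the 16 arrays. This is a description, since the arrays share groups and mice. For Slc22a26 the nearest genes were Cyp2c69 (0.731), Cyp3a16 (0.842) and Sult3a1 (0.856), which encode cytochromes P450 and a sulfotransferase. For Slc22a27 they were Rdh16f2 (0.431), Cyp2a4 (0.702) and Cyp2c40 (0.816). For Slc22a28 they were Adra1b (0.349), which encodes an adrenergic receptor, Cyp2d37-ps (0.39) and Pmvk (0.395). For Slc22a30 they were Pmvk (0.289) and Tm7sf2 (0.35), both of which encode enzymes of cholesterol synthesis, and Adra1b (0.351). Slc22a28 and Slc22a30 were 0.317 apart, with the limit on shared probe signal given above. The other 4 members varied by an SD under 1 over the arrays, and no nearest genes were sought for them.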

How the data were processed

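Total RNA of 16 liver samples was hybridised to Affymetrix arrays. Per the submitters' processing notes, the authors used RMA and Affymetrix Expression Console 1.4.1. The deposited values are on a log2 scale, a base inferred from how far they reach; the settings of the run and the array's genome build are not given in the sources used here. RMA makes array distributions alike, so changes are relative to other genes. Of 41345 rows, 23521 had 1 gene symbol, 1814 several and 16010 none; where a gene had several rows, the one with the highest mean stood for it. Genes above the array median in at least 4 of 16 arrays were tested (13555). No arrays were identical (0 pairs).

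Every comparison used limma 3.58.1 under R 4.3.3 (2-sided, Benjamini-Hochberg adjustment over all tested genes, threshold 0.05), checked on simulated data. Tumour comparisons and their difference had the mouse as a block, because both samples of a mouse come from the same animal; within-group deviations of such pairs correlated at 0.0963 to 0.325. Genotypes were compared within a tissue by 4 group means. Standard errors rest on a spread pooled over groups. Alternatives were the block, the filter, the row per gene, median centring, the eBayes prior and leaving out mice. The named genes were the 8 members, other Slc22 genes, up to 3 neighbours on each side, up to 4 genes of lowest p per list and comparison, marker lists, Myc, and the 3 nearest profiles of members with an SD of at least 1. The sex-linked rows were added after seeing the data. Members and lists were chosen with earlier results of these data known. Promoters and gene order came from RefSeq tables of GRCm38.p6, with 7 of 8 members found among the promoters. Promoter pairs were aligned with Biopython 1.88.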

Additional observations from a re-analysis of the deposited data

Results flagged for a closer look

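Among 48 sets of 4 values (levels and changes of the 8 members by group), 2 held a value far from the other 3, by a gap over Dixon's 95% critical value for the share of the set's range, which chance alone gives in about 1 of 20 sets. The tumour change of Slc22a5 in MYC/REG3A mouse 3 was -1.42, while the other 3 MYC/REG3A mice lay between -0.07 and 0.02. The Slc22a7 level in the non-tumour liver of MYC/REG3A mouse 4 was 8.82, while the other 3 MYC/REG3A non-tumour pieces lay between 7.20 and 7.28. The split of MYC/REG3A tumours into mice 1 and 3 and mice 2 and 4, seen for Slc22a26, gave no such single value.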

How the results depend on the processing

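Precision is limited by 4 mice per genotype, by probe signal that similar copies may share, and by values near the bottom of the scale for Slc22a30. Without the replicate block, 5 members were called in MYC/REG3A and 5 in MYC mice. In all, 1613 genes were called in MYC/REG3A and 4419 in MYC mice without it, against 1690 in MYC/REG3A and 4505 in MYC mice with it. With no filter, 3 members instead of 5 were called in MYC/REG3A mice, since Slc22a23 (adjusted p = 0.0501) and Slc22a30 (0.0529) were lost among more genes tested. In MYC mice that setting called 5 members instead of 6, as did the mouse as a random block, both without Slc22a5. With the filter at 8 arrays Slc22a30 was not tested, and 4 members were called in MYC/REG3A and 5 in MYC mice. For the difference of tumour changes, 1 gene was called in all, and 0 without the block, with no filter, with the filter at 8 arrays or without MYC/REG3A mice 2 and 4. Between tumours of the genotypes 3 genes were called, and 0 with only the tumour arrays or without those mice. Leaving out 1 mouse in turn gave 2975 to 4490 genes and 5 to 7 members in MYC mice, 273 to 1849 genes and 0 to 5 members in MYC/REG3A mice, 0 to 2 genes for the difference, 0 to 22 genes between non-tumour livers, and 3 to 114 genes and 0 to 2 members between tumours. Without MYC/REG3A mice 2 and 4, a pair chosen for its small tumour changes, differences of tumour changes turned to -0.093 (Slc22a18), -1.09 (Slc22a27), -0.20 (Slc22a28) and -0.39 (Slc22a30), and tumour differences between genotypes to -1.35 (Slc22a27), -0.25 (Slc22a30) and -0.71 (Slc22a29). With 1 mouse left out, differences of changes spanned -0.071 to 0.227 (Slc22a18), -0.087 to 1.186 (Slc22a27) and -0.546 to 0.097 (Slc22a29), those between non-tumour livers -0.036 to 0.107 (Slc22a26), -0.15 to 0.14 (Slc22a27), -0.011 to 0.36 (Slc22a30) and -0.23 to 0.36 (Slc22a5), and those between tumours -0.19 to 1.19 (Slc22a27), -0.624 to 0.046 (Slc22a7) and -0.12 to 0.70 (Slc22a29). The causes were not tested, and none of these sign changes concerns a called value.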
